A study of Mus musculus with 4 samples.

Results

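The D cyclins, their partner kinases, the inhibitors of those kinases and the retinoblastoma gene decide whether a cell leaves G1, the gap before DNA replication. They were followed here as 10 genes of the 55536 annotated in the deposited gene tables. The members were taken by symbol and not by a cut on their values, but with earlier results of these data known. They were Ccnd1, Ccnd2 and Ccnd3, Cdk4 and Cdk6, Cdkn1a and Cdkn1b, Cdkn2c and Cdkn2d, and Rb1. All 10 were found and all 10 passed the filter of a mean of at least 10 counts that left 14041 genes to test. The samples were bone marrow-derived macrophages, primary cells grown out of the marrow of C57BL/6J mice and given Lipid A, the membrane anchor of bacterial lipopolysaccharide, at 100 ng/ml for 15 minutes. RNA of the cytosolic fraction was depleted of ribosomal RNA and sequenced in 4 libraries, labelled as biological replicates 1 to 4 of 1 group. The labels tie all 4 to one donor record, give sex and age as not collected and do not say whether separate cultures were used, so every p below reflects only how far these 4 libraries spread, and that spread may be technical. Unstimulated cells and nuclear RNA were not analysed here, so a level cannot be read as a response to Lipid A.

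A D cyclin binds Cdk4 or Cdk6 and the pair phosphorylates the Rb protein, which then lets go of the E2F factors that switch on genes of DNA replication. The Ink4 proteins, among them the products of Cdkn2c (p18) and Cdkn2d (p19), bind Cdk4 and Cdk6 and keep the cyclin off. The Cip/Kip proteins, encoded by Cdkn1a (p21) and Cdkn1b (p27), bind cyclin and kinase together and block chiefly Cdk2. Macrophages grown from marrow divide in response to the growth factor of the receptor Csf1r, and cyclin D1 is a known product of that signal, while Cdkn1b is known as a gene of resting cells.

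The 3 D cyclins are separate genes whose coding starts differ. The stretches below are the first 60 coding bases of the main transcript of each gene, from the GENCODE M21 transcripts, 5′ to 3′. Capitals mark the codons of the LxCxE motif, by which D cyclins touch the Rb protein, at codons 5 to 9 of Ccnd1 and at codons 3 to 7 of Ccnd2 and Ccnd3. In mm10 they lie in coding exon sequence at chr7:144939634-144939693 (minus strand), chr6:127150714-127150773 (minus strand) and chr17:47593655-47593714 (plus strand).
Ccnd1: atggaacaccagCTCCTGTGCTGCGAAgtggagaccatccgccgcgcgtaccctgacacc
Ccnd2: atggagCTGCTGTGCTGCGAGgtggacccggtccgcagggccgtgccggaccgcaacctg
Ccnd3: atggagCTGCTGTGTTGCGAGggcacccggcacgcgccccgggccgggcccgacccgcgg
Over their whole coding sequences, of 885, 867 and 876 bases without the stop codon, Ccnd1 and Ccnd2 had 72.4% of aligned bases in common, Ccnd2 and Ccnd3 70.7% and Ccnd1 and Ccnd3 68.8%. The longest identical runs were 20, 14 and 17 bases, in that order of pairs. No stretch of 31 bases of any member's main transcript occurred in another member, so reads of one could not be split with another at that length.

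Promoter windows from RefSeq, on GRCm38.p6 and running from 250 bases before to 50 after a gene's start, were at hand for 7 of the 10 members, in 10 windows. Those of every called member of replicate 1 with a window follow, each on the plus strand: Ccnd3 (2 windows), Cdk4 and Cdk6, which were higher there, and Cdkn1b, which was lower. Capitals mark each E-box (CACGTG, the same on both strands). The windows lie at chr17:47504801-47505100, chr17:47593217-47593516, chr10:127063285-127063584, chr5:3343643-3343942 and chr6:134920151-134920450, in the order shown.
Ccnd3, window 1: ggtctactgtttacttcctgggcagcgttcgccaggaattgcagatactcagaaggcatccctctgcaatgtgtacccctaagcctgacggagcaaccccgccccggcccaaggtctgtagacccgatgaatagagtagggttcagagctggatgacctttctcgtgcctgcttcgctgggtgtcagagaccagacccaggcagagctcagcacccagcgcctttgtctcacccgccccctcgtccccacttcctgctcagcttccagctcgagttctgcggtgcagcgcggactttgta
Ccnd3, window 2: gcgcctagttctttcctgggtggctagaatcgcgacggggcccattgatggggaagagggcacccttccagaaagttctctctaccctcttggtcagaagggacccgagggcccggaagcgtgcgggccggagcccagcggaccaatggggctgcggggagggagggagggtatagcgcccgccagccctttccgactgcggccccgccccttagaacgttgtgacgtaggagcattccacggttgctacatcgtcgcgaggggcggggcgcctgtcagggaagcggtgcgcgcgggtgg
Cdk4: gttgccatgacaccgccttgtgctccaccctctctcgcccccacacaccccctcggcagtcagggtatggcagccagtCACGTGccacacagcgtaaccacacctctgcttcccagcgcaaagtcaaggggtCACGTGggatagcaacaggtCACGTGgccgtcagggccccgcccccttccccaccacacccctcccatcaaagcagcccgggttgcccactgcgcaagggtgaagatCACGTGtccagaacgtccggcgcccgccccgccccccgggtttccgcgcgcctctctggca
Cdk6: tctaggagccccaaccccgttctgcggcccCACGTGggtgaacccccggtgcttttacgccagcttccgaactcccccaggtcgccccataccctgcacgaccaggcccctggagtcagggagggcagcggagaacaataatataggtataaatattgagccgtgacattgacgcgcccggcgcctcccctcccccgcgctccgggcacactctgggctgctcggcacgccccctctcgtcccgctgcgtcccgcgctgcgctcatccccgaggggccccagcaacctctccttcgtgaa
Cdkn1b: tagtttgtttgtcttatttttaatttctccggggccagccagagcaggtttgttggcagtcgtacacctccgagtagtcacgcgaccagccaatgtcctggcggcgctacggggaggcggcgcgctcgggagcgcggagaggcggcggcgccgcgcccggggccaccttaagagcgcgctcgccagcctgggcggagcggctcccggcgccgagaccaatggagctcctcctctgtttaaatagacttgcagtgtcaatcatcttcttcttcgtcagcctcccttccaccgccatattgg
The Cdk4 window held 4 E-boxes and the Cdk6 window 1, while both Ccnd3 windows and the Cdkn1b window held 0. An E-box was present in 3 of the 10 windows of members, the third being 1 of the 2 windows of Cdkn2c, and in 7.15% of all 32851 windows of 300 bases. The GC box GGGCGG, searched on both strands, was in 7 of the 10 and in 35.7% of all windows. None of the 10 held the E2F letters TTTCCCGC, TTTCGCGC, TTTGCCGC or TTTGGCGC (2.26% of all windows hold one), the AP-1 letters TGACTCA (5.20%) or the CRE letters TGACGTCA (1.79%), on either strand. These matches describe letters and not binding.

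The libraries held 30088678, 47961117, 40282297 and 45771235 expected counts on annotated genes in replicates 1 to 4. The macrophage markers Lyz2, Cd68 and Adgre1 stood at means of 5104, 748 and 178 TPM, and all 10 macrophage markers listed reached 1 TPM. TPM is the length-corrected abundance of the deposited tables and allows genes to be compared. The markers of T cells, B cells, dendritic cells, progenitors, erythroid and stromal cells all stayed under a mean of 1 TPM, and 3 of 8 neutrophil markers reached it. The 7SL RNA genes took 57.1% to 63.3% of all TPM, which lowers every TPM below alike within a library. Replicate 1 stood apart from the other 3 at many genes.

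**Figure D1:**
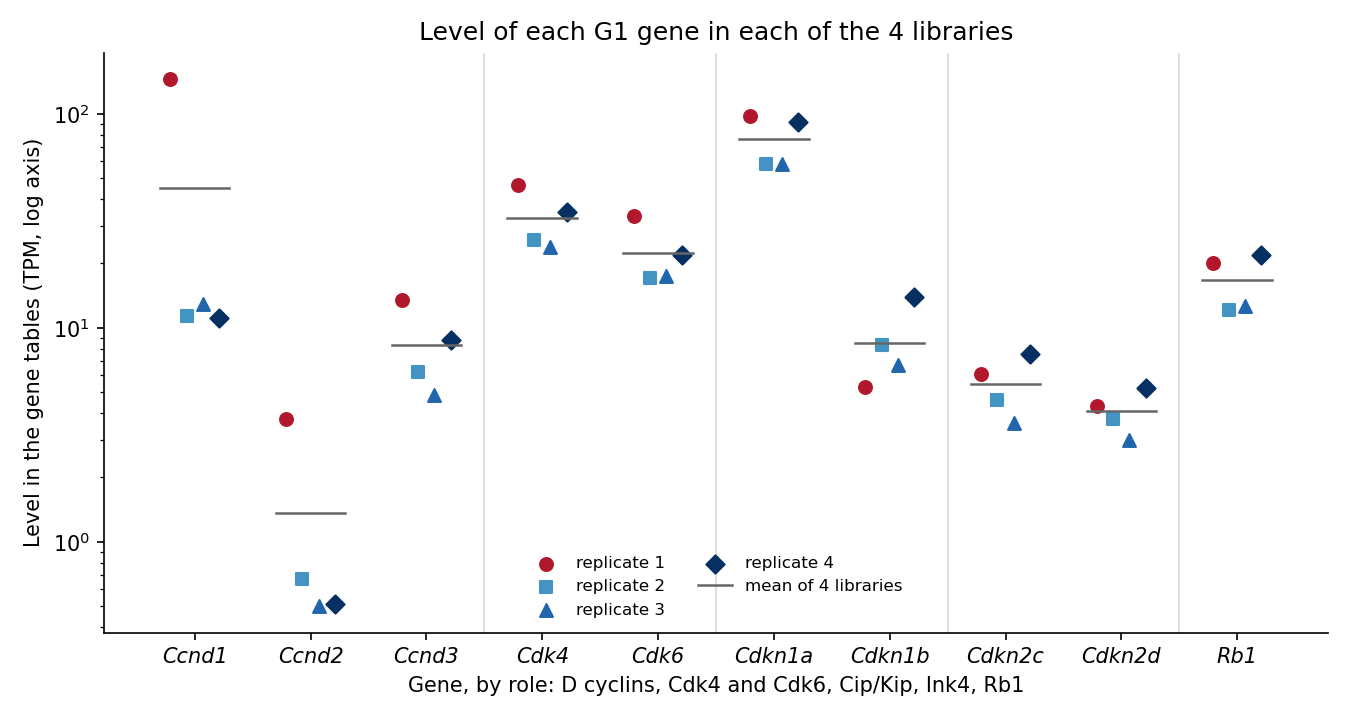
TPM of the 10 genes on a log axis, grouped by role along the horizontal axis, with 1 symbol for each library and a grey line at the mean of 4. Ccnd1 and Ccnd2 of replicate 1, at 145 and 3.77 TPM, lie far above the other 3 libraries, while the inhibitors of replicate 1 lie among or near theirs.

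Among the D cyclins, Ccnd1 and Ccnd2 were many times higher in replicate 1 than in the other libraries, and Ccnd3 less so. Ccnd1 (chromosome 7, 144929931 to 144939925, minus strand) stood at 145, 11.3, 12.9 and 11.1 TPM in replicates 1, 2, 3 and 4. Replicates 2 to 4 had a mean of 11.8 ± 1.01 TPM (SD, n = 3), and replicate 1 shared no range with them, so the mean of all 4, 45.1 ± 66.8 TPM (SD, n = 4), describes none of the libraries. Ccnd2 (chromosome 6, 127125162 to 127152193, minus strand), the D cyclin known for its part in lymphocyte and granulosa cell growth, stood at 3.77, 0.670, 0.500 and 0.510 TPM. It was the lowest of the 10 genes in each library of the gene tables, yet with 1069, 364, 216 and 199 counts it lay well above the 3 counts taken as the limit that a count of 0 allows. Ccnd3 (chromosome 17, 47505051 to 47599691, plus strand), prominent in blood cells, stood at 13.5, 6.19, 4.84 and 8.80 TPM. Its lowest library was replicate 3 and its highest replicate 1, again outside the range of the others. In TMM-scaled CPM, which compare a gene between libraries, Ccnd1 was less even over replicates 2 to 4, at 80.6, 90.8 and 52.5. On that scale Ccnd3 stood at 21.8, 17.5 and 20.6 there, so replicate 2 and not replicate 4 came next to replicate 1.

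Both kinase genes stood above each D cyclin in every library, apart from Ccnd1 in replicate 1. Cdk4 (chromosome 10, 127063534 to 127067920, plus strand) stood at 46.4, 25.7, 23.8 and 34.9 TPM in replicates 1 to 4. Cdk6 (chromosome 5, 3341485 to 3531008, plus strand), whose known domain is the blood lineages, stood at 33.4, 17.1, 17.4 and 21.8 TPM. For both genes replicate 1 was highest in TPM and replicate 4 came next. In TMM-scaled CPM, which compare a gene between libraries, replicate 1 was again highest but replicate 4 was lowest, at 82.7 for Cdk4 and 238 for Cdk6. Cdk4 exceeded Cdk6 in 4 of 4 libraries, by 0.55 ± 0.11 on the log2 TPM scale (SD, n = 4). The exact two-sided sign-flip permutation over the 4 libraries gave p = 0.125, the smallest that 4 libraries allow (2 of 16 sign patterns), and 0.225 after adjustment over 9 neighbouring pairs.

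The Cip/Kip inhibitors parted in replicate 1. Cdkn1a (chromosome 17, 29090976 to 29100727, plus strand), the p53 target that encodes p21, stood at 97.3, 58.3, 58.0 and 91.9 TPM in replicates 1 to 4. Replicates 1 and 4 were high in TPM and replicates 2 and 3 nearly equal. In TMM-scaled CPM Cdkn1a stood at 242, 198, 196 and 204, so replicate 4 lay near replicates 2 and 3 on that scale. It had the highest TPM of the 10 genes in replicates 2, 3 and 4. Cdkn1b (chromosome 6, 134920401 to 134925513, plus strand), which encodes p27, stood at 5.31, 8.28, 6.71 and 13.9 TPM. Here replicate 1 was the lowest library and replicate 4 the highest, and the ranges of replicate 1 and the others did not meet.

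The Ink4 genes were low and even. Cdkn2c (chromosome 4, 109660876 to 109667189, minus strand) stood at 6.10, 4.61, 3.60 and 7.55 TPM, and Cdkn2d (chromosome 9, 21288410 to 21291407, minus strand) at 4.29, 3.73, 2.99 and 5.26 TPM. In TPM replicate 3 was lowest and replicate 4 highest for both. In TMM-scaled CPM replicate 3 was again lowest, but Cdkn2c was highest in replicate 1, at 15.8. Cdkn2d was nearly equal in replicates 2 and 4 on that scale, at 8.67 and 8.64. Rb1 (chromosome 14, 73183673 to 73325822, minus strand), the pocket protein that the D cyclin kinases phosphorylate, stood at 20.2, 12.1, 12.7 and 21.9 TPM, with replicates 1 and 4 above replicates 2 and 3. In TMM-scaled CPM, which compare a gene between libraries, Rb1 was nearly level at 92.4, 99.7, 101 and 104, so the gap between its TPM values did not appear on that scale.

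By mean TPM the order ran Cdkn1a, Ccnd1, Cdk4, Cdk6, Rb1, Cdkn1b, Ccnd3, Cdkn2c, Cdkn2d and Ccnd2. Of the 9 neighbouring pairs, 5 kept their direction in 4 of 4 libraries with a mean difference above its SD: Cdk4 over Cdk6, Rb1 over Cdkn1b, Ccnd3 over Cdkn2c, Cdkn2c over Cdkn2d and Cdkn2d over Ccnd2. Each has the sign-flip p of 0.125 given above. Differences on the log2 TPM scale were 1.01 ± 0.63 for Rb1 over Cdkn1b, 0.55 ± 0.41 for Ccnd3 over Cdkn2c, 0.40 ± 0.13 for Cdkn2c over Cdkn2d and 2.15 ± 1.37 for Cdkn2d over Ccnd2 (SD, n = 4). Without replicate 1 these were 0.71, 0.36, 0.36 and 2.81, so Ccnd3 over Cdkn2c shrank by over 1.5 times, and Cdk4 over Cdk6 was 0.57. The other 4 pairs did not differ beyond their spread. In all but Cdk6 over Rb1, replicate 1 went against the other libraries. Cdkn1a exceeded Ccnd1 by 2.37, 2.16 and 3.05 in replicates 2, 3 and 4 but lay at -0.58 in replicate 1. Ccnd1 lay at 1.65 relative to Cdk4 in replicate 1 and at -1.18, -0.88 and -1.66 in the others, and Cdkn1b relative to Ccnd3 at -1.35 against 0.42, 0.47 and 0.66. Cdk6 and Rb1 changed places in replicate 4, where the difference was -0.01. Taking only the main transcript of each gene, an alternative chosen after seeing the data, turned Cdkn2c over Cdkn2d to -0.36, because Cdkn2c divides over 2 transcripts.

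**Figure D2:**
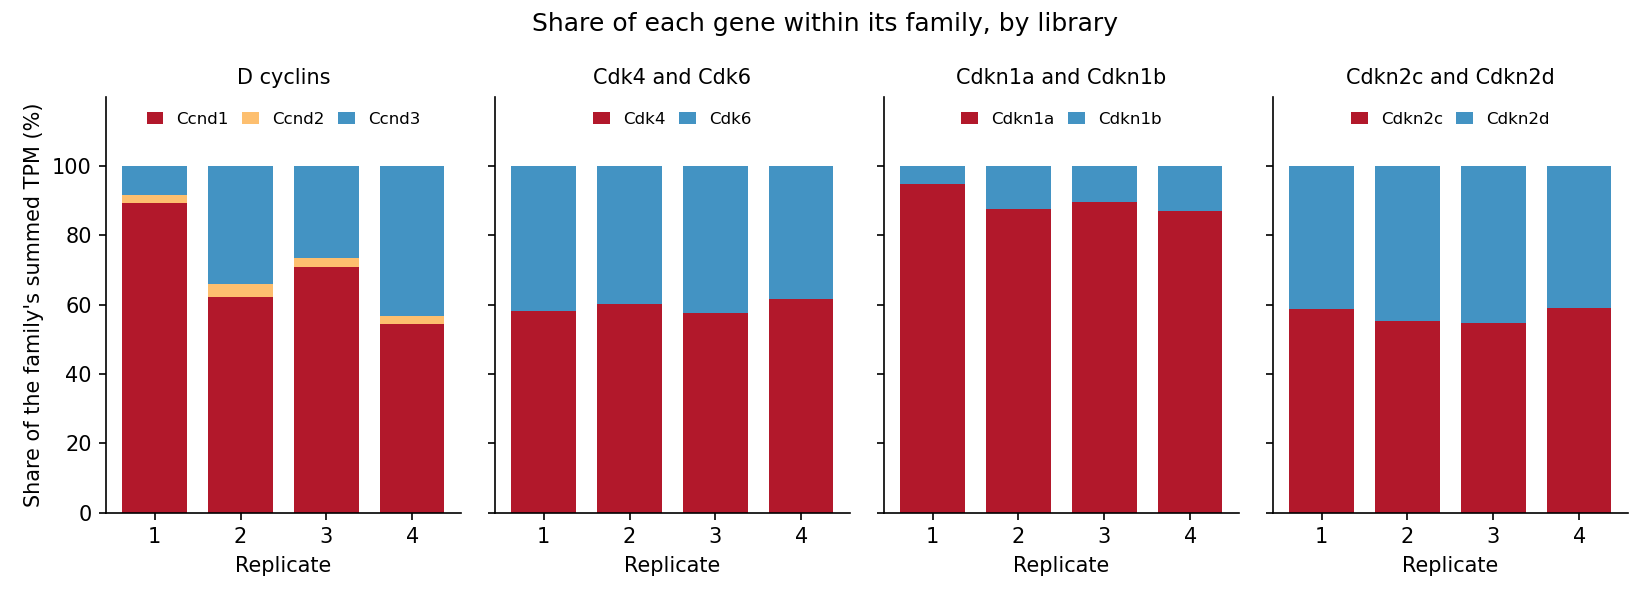
Share of each gene in the summed TPM of its family, in percent, for the 4 libraries; the families are the D cyclins, Cdk4 with Cdk6, Cdkn1a with Cdkn1b and Cdkn2c with Cdkn2d. Ccnd1 fills 89.4% of the D cyclin bar in replicate 1 and 54.3% to 70.8% in the others, while the bars of Cdk4 with Cdk6 and of Cdkn2c with Cdkn2d hardly change.

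Within families, the shares of the D cyclins ranged widely over the libraries and those of the kinases little. Ccnd1 held 89.4%, 62.2%, 70.8% and 54.3% of the D cyclin TPM in replicates 1 to 4, and Ccnd3 held 8.31%, 34.1%, 26.5% and 43.2%. Ccnd2 held 2.32% to 3.69% in every library, so it kept its small share although its level in replicate 1 was several times that of the others. Cdk4 held 59.4% ± 1.80 (SD, n = 4) of the kinase TPM and Cdkn2c 56.9% ± 2.25 of the TPM of Cdkn2c and Cdkn2d, or 59.8% and 56.3% without replicate 1. Cdkn1b held 5.18% of the TPM of Cdkn1a and Cdkn1b in replicate 1 and 10.4% to 13.1% in the others. These pairs leave out the further Cip/Kip and Ink4 genes Cdkn1c, Cdkn2a and Cdkn2b, which are no members. Shares need no scaling between libraries, and on the target tables, a second quantification in the deposit, Ccnd1 held 89.8%, 63.8%, 71.8% and 55.1%.

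Summed over families, the D cyclins reached 163 TPM in replicate 1 and 18.2, 18.3 and 20.4 TPM in replicates 2, 3 and 4. Cdk4 and Cdk6 together reached 79.8, 42.8, 41.2 and 56.7 TPM. There were thus 2.04 D cyclin transcripts for each kinase transcript in replicate 1, and 0.425, 0.444 and 0.359 in the others. The sum of Cdkn1a and Cdkn1b, without Cdkn1c, was 103, 66.6, 64.7 and 106 TPM, which is 0.631 per D cyclin transcript in replicate 1 and 3.67, 3.54 and 5.19 in replicates 2 to 4. Replicate 1 was the one library with more D cyclin transcripts than transcripts of Cdkn1a and Cdkn1b. The sum of Cdkn2c and Cdkn2d stayed below the kinase sum in each library, at 0.130, 0.195, 0.160 and 0.226 per kinase transcript. These are ratios of transcripts and not of proteins.

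**Figure D3:**
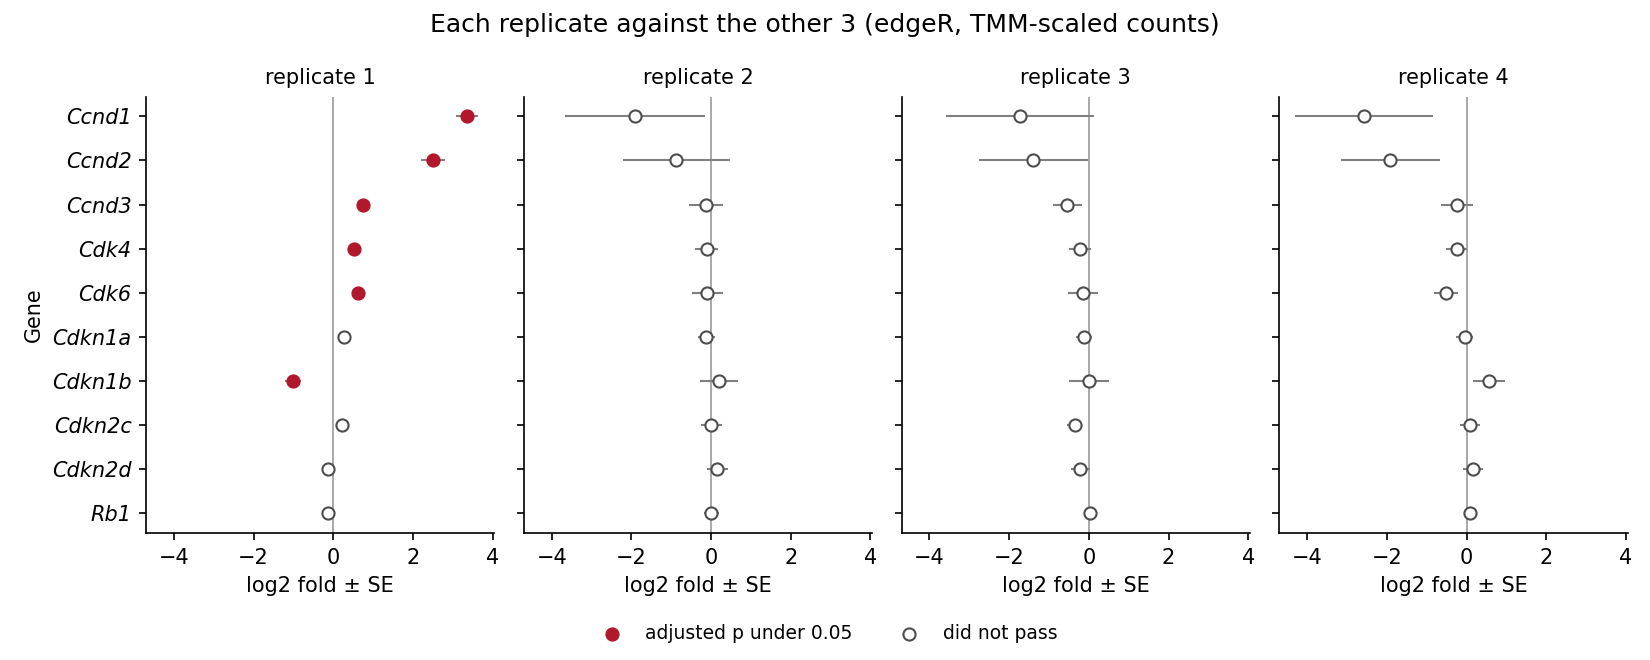
log2 fold ± SE of each gene in each replicate against the other 3, from the edgeR fit, in 4 panels; filled points passed at an adjusted p under 0.05. In replicate 1 the D cyclins and kinases lie to the right and Cdkn1b to the left, and in replicates 2 to 4 no point is filled.

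When each library was compared with the other 3, the D cyclins and their kinases were higher in replicate 1 and Cdkn1b was lower there. With edgeR's quasi-likelihood test and Benjamini-Hochberg adjustment over 14041 genes, 5 of the 10 were higher and 1 was lower, where 14.5% of all genes tested were higher and 7.58% were lower. The median log2 fold was 0.40 over the 10 genes and 0.00 over all genes tested. With library totals alone as the scale, the median over all genes moved to 0.11 and the genes called to 2293 higher and 523 lower, against 2031 and 1065, so small folds should be read relative to that shift. Fewer cells making a transcript and less transcript per cell cannot be told apart in such bulk samples. A single library carries no estimate of its own spread, which the test borrows from the other 3.

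Ccnd1 led, with 764 TMM-scaled CPM in replicate 1 against 80.6, 90.8 and 52.5 in the others, a log2 fold of 3.36 ± 0.28 (SE) with an edgeR adjusted p of 0.00374. It ran from 3.08 to 3.52 over 9 alternative settings and passed in each. Ccnd2 was higher by 2.50 ± 0.31, with 33.5 CPM against 7.89, 5.76 and 4.14 (edgeR adjusted p 0.00793). Ccnd3 was higher by 0.75 ± 0.14, with 33.6 CPM against 21.8, 17.5 and 20.6 (edgeR adjusted p 0.0231). Bysl, a ribosome assembly gene that overlaps Ccnd3 on the other strand, was higher by 1.31 in the same library, and its part in the value of Ccnd3 was not tested. The kinase genes were higher too, Cdk4 by 0.52 ± 0.08, with 122 CPM against 89.2, 83.5 and 82.7 (edgeR adjusted p 0.0155), and Cdk6 by 0.62 ± 0.16, with 427 CPM against 301, 292 and 238 (edgeR adjusted p 0.0475). Cdk6 lay at the threshold, and its call was lost with DESeq2's size factors (edgeR adjusted p 0.0573) and without replicate 3 (0.0777).

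Cdkn1b fell by 1.01 ± 0.19 on the log2 scale in replicate 1, with 19.5 CPM against 38.1, 34.3 and 45.5 (edgeR adjusted p 0.0212). Scaled by library totals alone, its log2 fold was -0.91 with an edgeR adjusted p of 0.0598. The other inhibitors and Rb1 did not pass. Cdkn1a had a log2 fold of 0.28 ± 0.09 (edgeR adjusted p 0.0877), and 0.26 with an adjusted p of 0.0499 by DESeq2's Wald test. The log2 folds were 0.22 ± 0.16 for Cdkn2c, -0.12 ± 0.17 for Cdkn2d and -0.13 ± 0.08 for Rb1, with edgeR adjusted p-values of 0.365, 0.654 and 0.286. Cdkn1a and Cdkn1b thus lay on opposite sides of 0 in replicate 1, with 18.3 transcripts of Cdkn1a for each of Cdkn1b there and 7.04, 8.64 and 6.62 in replicates 2 to 4.

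In replicates 2, 3 and 4 none of the 10 genes passed, and neither did any other gene (0% of 14041 higher or lower in each). At an unadjusted p under 0.05, edgeR gave 277, 135 and 104 genes and 0 of the 10 members, and DESeq2 called 8, 3 and 17 genes, again none of the 10. The 4 comparisons share their libraries, so replicate 1 stands in the control side of the last 3 and widens their errors: for Ccnd1 they gave log2 folds of -1.91 ± 1.76, -1.72 ± 1.86 and -2.57 ± 1.73 (SE). Cdkn1b had a log2 fold of 0.57 ± 0.40 in replicate 4, its highest library.

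All 10 genes varied between the libraries beyond Poisson counting, which 82.8% of the 14041 genes tested also did, so at this depth that count does not set them apart. The call was lost for Rb1 on the target tables, for Cdkn2d without replicate 2 and for Cdkn2c and Cdkn2d without replicate 3. The size of the variation ranged widely. The SD of TMM-scaled log2 CPM was 1.73 for Ccnd1, above 98.9% of genes tested, and 1.32 for Ccnd2, above 95.3%. At the other end Rb1 had 0.07, above 7.44%, and Cdkn1a and Cdkn2d had 0.14 each, against a median of 0.25 over all genes. Without replicate 1, Ccnd1 and Ccnd2 still spread more than most genes, with SDs of 0.41 and 0.46 (above 81.0% and 82.9%). Cdkn1b had 0.21, Cdk4 0.07 and Cdkn1a 0.04 there, and Rb1, at 0.03, no longer varied beyond counting (adjusted p 0.134 by the deviance test). The median over all genes was then 0.13.

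**Figure D4:**
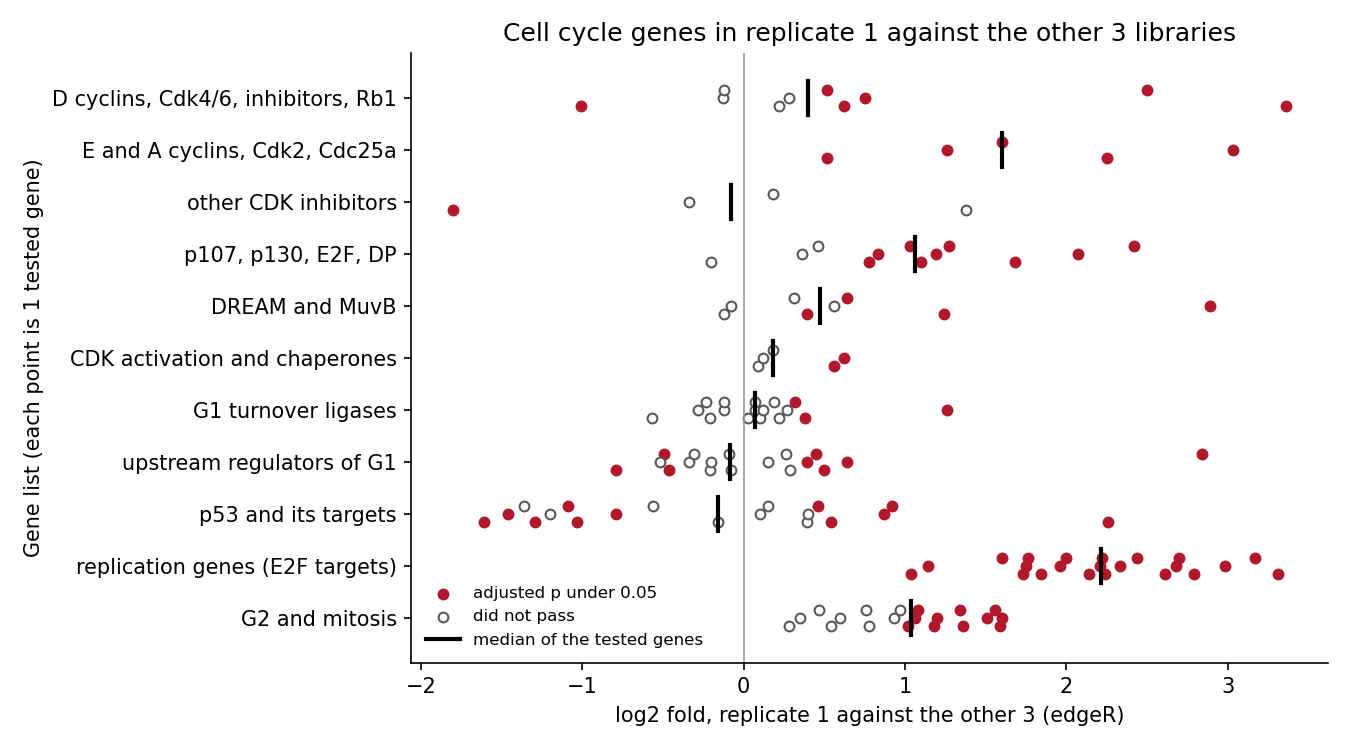
log2 fold of each tested gene of 11 cell cycle lists in replicate 1 against the other 3 libraries; filled points passed at an edgeR adjusted p under 0.05 and the black bar is the list's median. The replication genes all lie to the right, with a median of 2.21, while points of the upstream regulators and p53 targets lie on both sides of 0.

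Known targets of the E2F factors were higher in replicate 1. The lists that follow, like the members, were chosen with results of these data known, and the higher level of replication and mitosis genes in replicate 1 was known among them. Of 22 replication genes known as E2F targets, 22 were higher and 0 lower in replicate 1, with a median log2 fold of 2.21. For this list and those that follow, 14.5% of all genes tested were higher and 7.58% lower, around a median of 0.00. Cdc6, which loads the replicative helicase, was higher by 3.31 ± 0.13 (SE), with 5.52 TPM against 0.410, 0.320 and 0.700. Uhrf1, which guides DNA methylation after replication, was higher by 3.17 ± 0.11 and the helicase subunit gene Mcm5 by 2.98 ± 0.12. The list's most abundant genes were Pcna, the replication clamp, at 185, 64.4, 65.2 and 80.7 TPM, Mcm6 and Mcm3. The summed TPM of the list was 527 in replicate 1 and 118, 124 and 160 in the others.

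The E and A cyclins, which act after the D cyclins with Cdk2, were higher too. All 5 genes tested of the 6 listed were higher, with a median log2 fold of 1.60, and the germ line cyclin Ccna1 had 0 counts in each library. Ccne2 stood at 7.37 TPM in replicate 1 against 0.550, 0.580 and 1.14, a log2 fold of 3.03 ± 0.11 (SE, edgeR adjusted p 0.00142). Ccne1 was higher by 2.25 ± 0.20 and Ccna2 by 1.60 ± 0.24, and the abundant Cdk2 and the phosphatase gene Cdc25a by 0.52 ± 0.09 and 1.26 ± 0.10.

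Of the 12 other pocket protein, E2F and DP genes, 9 were higher and 0 lower, with a median log2 fold of 1.07. E2f7, E2f8 and E2f2 led, with log2 folds of 2.42 ± 0.30, 2.07 ± 0.14 and 1.68 ± 0.17 (SE). E2f7 and E2f8 encode repressors and E2f2 an activator. Tfdp1, the DP partner of the E2Fs and the most abundant of the list, stood at 22.2, 7.21, 7.27 and 10.6 TPM and was higher by 1.19 ± 0.08. Rbl2, which encodes the pocket protein p130 of resting cells, had a log2 fold of -0.20 ± 0.12, and E2f4, a repressor that works with it, 0.46 ± 0.13, and neither passed. Rbl1 (p107), named after its value was seen, was higher by 1.27 ± 0.09, and its difference from Rb1 and Rbl2 was not tested.

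Of 8 DREAM and MuvB genes, whose products hold cell cycle genes silent in resting cells or activate them in G2, 4 were higher and 0 lower, with a median of 0.48. Mybl2 was higher by 2.89 ± 0.26 (SE), Foxm1 by 1.24 ± 0.12, Lin54 by 0.64 ± 0.11 and the histone chaperone gene Rbbp4 by 0.39 ± 0.09. The kinase gene Dyrk1a, which promotes assembly of the complex, and Lin37 had log2 folds of -0.08 ± 0.08 and -0.12 ± 0.16 and did not pass. Of 20 genes of G2 and mitosis, 11 were higher and 0 lower, with a median of 1.04, where 14.5% and 7.58% of all genes tested were. Bub1 was higher by 1.60 ± 0.26, Cdk1 by 1.59 ± 0.18, Ttk by 1.56 ± 0.29, Top2a by 1.51 ± 0.15 and Mki67 by 1.18 ± 0.23. Their summed TPM was 112 in replicate 1 against 34.2, 30.1 and 62.4, so replicate 4 was second here.

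The other inhibitors of cyclin-dependent kinases were scarce apart from Cdkn1c. Of 4 genes, 0 were higher and 1 lower in replicate 1. Cdkn1c, which encodes p57, the third Cip/Kip protein, stood at 4.96 TPM there against 18.7, 13.8 and 14.3, a log2 fold of -1.80 ± 0.42 (SE, edgeR adjusted p 0.0382). Its mean, 12.9 ± 5.74 TPM (SD, n = 4), was above that of Cdkn1b. Cdkn3 stood between 0.880 and 2.16 TPM, Cdkn2a, the source of p16 and Arf, between 0.0800 and 0.440 TPM and Cdkn2b, named outside the rule for named genes, between 0.120 and 0.470 TPM, and none of these passed. Both p27 and p57 transcripts were thus lower in replicate 1, and that of p21 did not pass the test.

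Of 18 upstream regulators, 5 were higher and 3 lower in replicate 1, with a median log2 fold of -0.08, where 14.5% of all genes tested were higher and 7.58% lower. Myc, a direct activator of Ccnd2 and Cdk4 in textbook accounts, stood at 18.8 TPM against 1.73, 2.41 and 2.88, a log2 fold of 2.84 ± 0.18 (SE). Foxo3, a transcription factor that activates Cdkn1b, fell by 0.79 ± 0.12 on the log2 scale. The other called genes of this list are not named here. Whether Myc or Foxo3 had a part in the values of Ccnd2, Cdk4 or Cdkn1b was not tested. The receptor Csf1r, at 228, 229, 250 and 350 TPM, had a log2 fold of -0.52 ± 0.14 (edgeR adjusted p 0.0538), and Akt1 and Mapk3 had -0.09 ± 0.13 and -0.34 ± 0.11, and these did not pass.

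Of the p53 pathway, to which Cdkn1a belongs, 19 of 20 listed genes were tested. In replicate 1, 5 were higher and 6 lower, with a median of -0.16, against 14.5% higher and 7.58% lower among all genes tested. The kinase gene Plk3 was higher by 2.26 ± 0.28 (SE), while the death gene Pmaip1 fell by 1.61 ± 0.12 and the stress gene Gadd45a by 1.46 ± 0.18 on the log2 scale. The most abundant was Sesn1, at 43.5 TPM against 56.3, 52.1 and 84.0, which fell by 0.79 ± 0.11, and Bax had a log2 fold of 0.15 ± 0.08 that did not pass.

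Among genes of turnover and assembly, 5 were higher and 0 lower, where 14.5% of all genes tested were higher and 7.58% lower. Of 17 genes of the ubiquitin ligases that degrade D cyclins, E cyclins or p27, 3 were higher and 0 lower, with a median of 0.07: Cks1b, the Skp2 cofactor, by 1.26 ± 0.20, Skp1a by 0.38 ± 0.08 and Cul3 by 0.32 ± 0.08 (SE). Ddb1, the most abundant of them at a mean of 36.2 TPM, had 0.12 ± 0.09. Of 5 genes of the CDK-activating kinase and the CDK chaperones, 2 were higher and 0 lower, with a median of 0.18. These were Ccnh, by 0.62 ± 0.11, and Hsp90ab1, by 0.56 ± 0.13, while Cdc37, which delivers Cdk4 and Cdk6 to that chaperone, had 0.18 ± 0.08.

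Of 10 macrophage markers, 1 was higher and 1 lower in replicate 1, with a median log2 fold of -0.15, and over all genes tested 14.5% were higher and 7.58% lower. Itgam (CD11b) was higher by 1.02 ± 0.10 (SE) and the efferocytosis receptor Mertk fell by 0.81 ± 0.15, both named after their values were seen. The summed TPM of 6 progenitor markers was 1.77, 1.71, 1.86 and 2.55 in replicates 1 to 4, and that of 8 T cell markers 0.0900, 0.110, 0.140 and 0.280, with Cd8b1 and Trbc1 at 0 counts. Neutrophil markers summed to 20.9, 26.8, 40.7 and 26.0 TPM. RNAs known to stay in the nucleus were unequal. Malat1 stood at 306, 242, 984 and 941 TPM, low in replicates 1 and 2 and high in replicates 3 and 4. In TPM only Ccnd2 of the 10 members shared this division, the other way round. In TMM-scaled CPM Ccnd2, Ccnd3, Cdk4 and Cdk6 were all higher in replicates 1 and 2 than in replicates 3 and 4. Rb1 was lower there, at 92.4 and 99.7 against 101 and 104, and the remaining members did not divide so. The part of other cells, of nuclear RNA and of the shallower depth of replicate 1 in the differences was not tested.

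Genes whose course over the 4 libraries was closest to a member's were sought among 10420 genes with a mean of at least 100 counts, as the smallest root mean square difference in centred TMM-scaled log2 CPM. For Ccnd1 these were Lrp8, at 0.097, Exo1, at 0.141, and Pcdhgc3, at 0.223. For Ccnd2 they were Spred2, at 0.122, Pcdhgc4 and Ncs1, and for Cdkn1b Cxcl10, at 0.023, Serinc3 and Pld4. Cdk4 had closer neighbours in Prpf19, at 0.004, Dnm1l and Tmed8, and Cdk6 in Mdh2, at 0.015, Slc30a4 and Mre11a. With only 4 libraries many genes share a course, the flatter ones most of all, and the distances are a description.

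**Figure D5:**
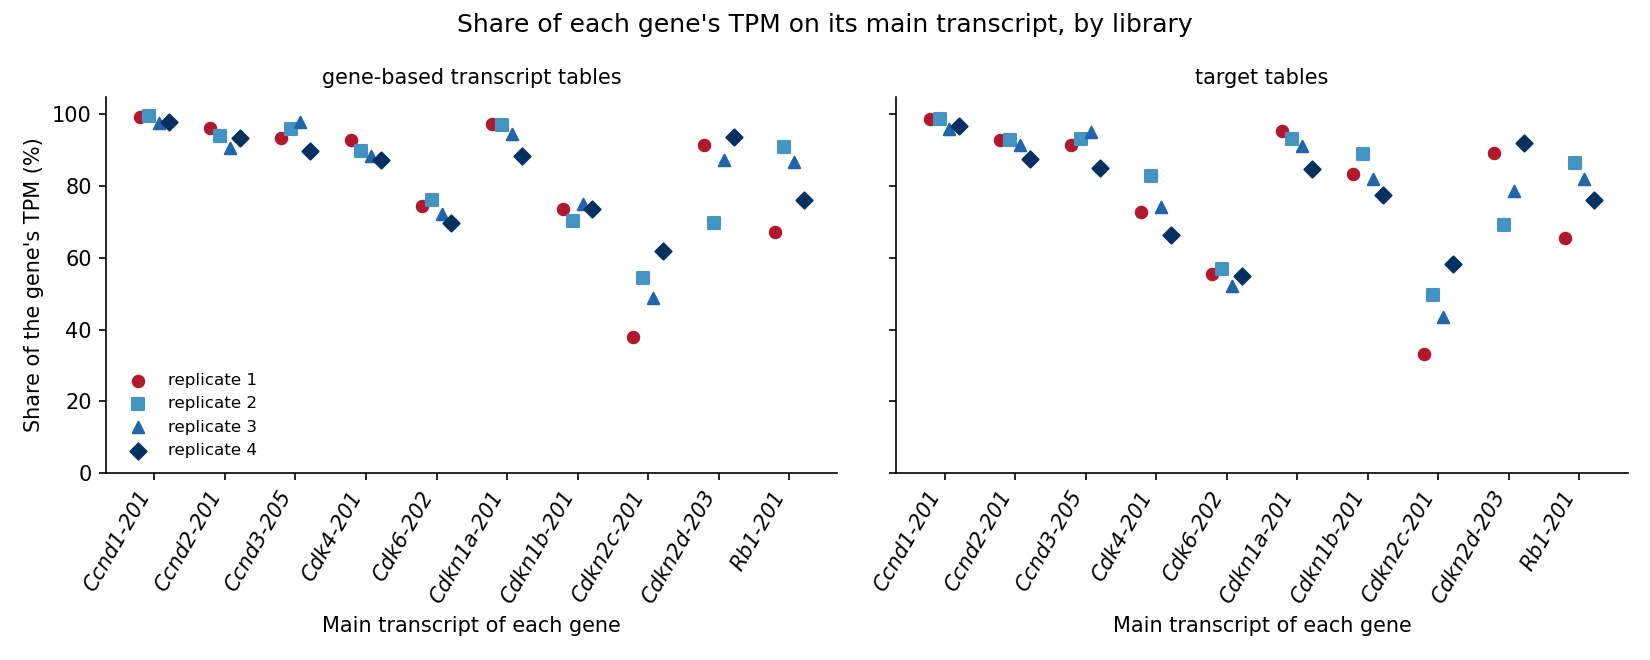
Share of each gene's TPM on its main transcript, in percent, by library, in the gene-based transcript tables (left) and the target tables (right). Ccnd1-201 carries nearly all of Ccnd1 in every library, while Cdkn2c-201 ranges from 37.9% to 61.8% and Rb1-201 from 67.2% to 90.8% on the left.

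The D cyclins were each carried by 1 transcript. Ccnd1-201 (3740 bases) held 98.5% ± 1.07 of the gene's TPM (SD, n = 4), Ccnd2-201 (6330 bases) 93.6% ± 2.33 and Ccnd3-205 (1977 bases) 94.3% ± 3.48, of 3, 8 and 21 annotated transcripts. The higher level of Ccnd1 in replicate 1 lay on the same full-length transcript, at 144 TPM against 11.2, 12.6 and 10.8. Cdk4-201 held 89.7% ± 2.38 and Cdkn1a-201 94.3% ± 4.14. Transcripts annotated with retained introns took 2.13%, 2.16%, 3.80% and 4.46% of the counts of Cdk4 in replicates 1 to 4. They took at most 2.61% of those of Ccnd3, 2.60% of Ccnd2, 1.37% of Rb1, 0.481% of Ccnd1 and 0.212% of Cdk6. In each of these genes the share was higher in replicates 3 and 4 than in replicates 1 and 2. Malat1 was higher in those libraries too, and a link was not tested.

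Some members were divided over several transcripts. Cdk6-202 (11525 bases) held 73.0% ± 2.80 of the gene's TPM but at least 98.5% of its counts, the rest lying on the short Cdk6-203 and Cdk6-205, which take much TPM from few reads. Cdkn1b-201 held 73.1% ± 1.94, with Cdkn1b-202 and Cdkn1b-203 at 14.2% ± 3.30 and 12.7% ± 5.16. On the target tables Cdkn1b-203 held only 0%, 0.130%, 0% and 7.40% in replicates 1 to 4, so its share depended on the quantification. Cdkn2c was divided between Cdkn2c-201, at 37.9%, 54.4%, 48.9% and 61.8% in replicates 1 to 4, and the longer Cdkn2c-202, so the leading transcript differed between libraries. Cdkn2d-203 held 91.4%, 69.6%, 87.2% and 93.6%, with replicate 2 low, where Cdkn2d-201 took 28.2%. Rb1-202, a transcript of 411 bases with no coding annotation, held 25.9% of Rb1 TPM in replicate 1 from 45.5 counts and 15.2% in replicate 4 from 46.0. Rb1-201 alone stood at 13.6, 11.0, 11.0 and 16.7 TPM, a narrower range than the gene as a whole.

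Reads of overlapping gene models limit some of these values, since the strand setting of the counting is unknown here. In stretches of 31 bases, LTO1 on the other strand held 28.1% of Ccnd1-201, Tspan31 30.2% of Cdk4-201 and Bysl 16.9% of Ccnd3-205. Bysl and Ccnd3-ps together held 32.0% of Ccnd3-205, and the part of Ccnd3-ps in the value of Ccnd3 was not tested. LTO1 had 464, 686, 588 and 772 counts and a log2 fold of -0.10 in replicate 1, and Tspan31 one of -0.20, and neither passed. The part of their reads in the values of Ccnd1 and Cdk4 was not tested. Cdkn1b, Cdkn2c and Cdkn2d shared no such stretch of their main transcripts with any other gene. AC167363.2, a model opposite Cdkn1a, had 60, 55, 243 and 620 counts, and Cdkn1a-203 had 67.5, 41.2, 150 and 494, so both were highest in replicate 4. That transcript held 8.45% of Cdkn1a TPM in replicate 4 and 0.790% to 3.52% in the others.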

How the data were processed

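Total RNA-seq of 4 libraries of 1 group was analysed. Per the file headers, the deposited gene tables give expected counts and TPM per gene, the transcript tables add the percent of each gene's TPM (IsoPct), and the authors' target tables give estimated counts and TPM per transcript from a second quantification. The deposited notes beside the files name mm10 and GENCODE M21, and all 55536 gene identifiers matched that annotation. For the aligner and the strand setting, nothing is given in the sources used here. Features that name no gene held 0.0267% to 0.407% of counts and were left out.

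After rounding of the expected counts, genes with a mean of at least 10 counts were tested, each replicate against the other 3, with TMM and the quasi-likelihood test of edgeR 4.0.16 (R 4.3.3), adjusted by Benjamini-Hochberg over 14041 genes, called under 0.05. TMM-scaled CPM are counts scaled by the TMM library size. Variation beyond counting was the deviance of a Poisson fit. Neighbouring levels were compared by exact sign-flip permutation. The fits were tested on simulated data with the same spread for all genes and larger folds than most members had. Smaller folds were not covered by that test. DESeq2 1.42.0 served as an alternative, and Python 3.11.15 for the rest. Floors are 3 counts of a library; as reads carry no molecular identifiers and may be copies of one molecule, they reflect counting error alone.

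The members, lists and tests were chosen with earlier results of these data known. The rule names every member, the 3 most abundant genes and up to 3 called genes with the largest fold of each list, and the 3 genes closest in course to each member; some of these are left out of the text. The alternatives were other scalings, count filters, the target tables, DESeq2, TPM without the 7SL genes, a pseudocount of 1 and leaving out each replicate.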

Additional observations from a re-analysis of the deposited data

Results flagged for a closer look

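In 36 groups of 4 values, the highest or lowest value of each member was compared with the range of the group, a rule that chance meets in about 1 group in 20. It singled out 5 values, each in replicate 1, because the gap to the nearest other library took up nearly the whole range. These were Ccnd1 at 145 TPM and 764 TMM-scaled CPM, Ccnd2 at 3.77 TPM and 33.5 TMM-scaled CPM, and Cdk4 at 122 TMM-scaled CPM, where the other 3 libraries lay at 82.7 to 89.2. The values within a gene share their reads, so the 5 stand for 3 genes.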

How the results depend on the processing

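No paired analysis was possible because the 4 libraries form 1 group. Of the 10 members, Ccnd1, Ccnd2, Ccnd3 and Cdk4 passed in replicate 1 under all 9 alternatives; the lost calls of Cdk6 and Cdkn1b stand beside their values above. Cdkn2d turned to a log2 fold of 0.04 on the target tables, with no call either way. Genes lower in replicate 1 numbered 523 with library totals and 520 on the target tables, against 1065, and 888 to 1386 when a library was left out. For replicate 2, DESeq2 called 8 lower; leaving out a library gave 0 to 1 higher and 0 to 81 lower, the 81 without replicate 1. For replicate 3 DESeq2 called 2 higher and 1 lower, and for replicate 4 it called 5 higher and 12 lower, with 1 lower with no count filter and 0 to 1 lower when a library was left out. Cdkn1b over Ccnd3, a difference of 0.05 in log2 TPM, turned to -0.07, -0.09 and -0.15 without replicates 2, 3 and 4 (range -0.15 to 0.52) and to -0.32 on main transcripts alone, where Cdkn2c over Cdkn2d was -0.36. That setting moved the share of Cdk4 in the kinase TPM to 64.2% and of Cdkn2c in the TPM of Cdkn2c and Cdkn2d to 43.8%, and the target tables gave Cdk4 56.3%. On the target tables Cdk4-201, Cdk6-202 and Cdkn1b-201 held 74.1%, 54.9% and 82.9%. The causes were not tested. Mean TPM depended on the quantification: Cdkn1a had 28.0 TPM on the target tables and 188 without the 7SL genes, against 76.4. Depth limited Ccnd2 and Cdkn2d most, with 199 and 240 counts in their lowest libraries.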
